A study of Salmo salar with 12 samples.

Results

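The methylation of CpG cytosines in the pituitary of female Atlantic salmon was set against that in the ovary. All 4 pituitary libraries and all 4 ovary libraries were used, 8 of the 12 libraries of the series, and the remaining 4 were from liver. CpG cytosines entered the comparison where they were listed in all 8 files, which held for 4181518 cytosines, or 20.2% of the 20672490 listed in at least 1 of the 8. For tests, reads were summed over 1 kb tiles with at least 3 such cytosines, which gave 573350 tiles.

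Whole-genome bisulfite sequencing reads unmethylated cytosines as thymines, so the share of reads that keep the cytosine is the methylation level of that position. Fish were adult female brood stock of a single management group, held in tanks. A long-light photoperiod, which stimulates the onset of sexual maturation, was started after the T1 sampling. Each tissue had 2 libraries at T1, taken immediately before the long-light regime began, and 2 at T4, taken at the last sampling after it had begun. The labels give no treatment other than the light regime and no genotype, so pituitary and ovary libraries differed in tissue and shared husbandry, sex and time points. Each library was made from DNA of snap-frozen whole tissue, so a different mix of cell types and a different level within the same cells cannot be told apart. The fish codes are at odds with each other, since those of the 2 ovary T1 libraries are exchanged between the library titles and the deposited data. In the data, each pituitary library resembled the ovary library of the same replicate number more than the other ovary library of its time point. At the most variable cytosines r was 0.823 and 0.394 at T1 and 0.822 and 0.817 at T4, so the second T1 pair was far less alike. The codes in the titles join only 1 of the 4. These were treated as 4 pairs, although the likeness was unequal. The planned tests took all libraries as independent. Values with the pairs as a block are given beside some of the results. Elsewhere the calls are those of the planned tests unless another fit is named.

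In vertebrates, methyl groups on CpG cytosines cover most of the genome, while CpG-rich stretches at the starts of many genes and around developmental regulators remain unmethylated. Patterns differ between tissues because they are set as cells differentiate and are copied at cell division. The pituitary secretes the gonadotropins and other hormones that govern maturation, and the ovary holds the growing oocytes with the follicle cells and stroma around them.

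The 8 libraries listed between 9525843 and 12056957 cytosines with at least 10 reads each, and their summed coverage was 159785200 to 224866844 reads. Median coverage at the common cytosines was 19 to 23 reads, and a tile held a median of 104 to 124 reads per library. Pituitary T1 replicate 1 listed no cytosine above 150 reads, whereas the highest coverage in the other 7 libraries was 4730 to 7378 reads. Of the common cytosines, 91.4% lay on the 29 chromosome sequences of the ICSASG_v2 assembly.

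Methylation was slightly higher in the pituitary than in the ovary. The mean level over the common cytosines was 79.98% and 80.24% in the pituitary libraries at T1 and 79.79% and 79.39% at T4. In the ovary libraries it was 78.39% and 78.01% at T1 and 78.41% and 79.17% at T4. Every pituitary library lay above every ovary library, although the lowest pituitary and the highest ovary library, both from T4, were close. The means were 79.8% ± 0.357 in the pituitary and 78.5% ± 0.486 in the ovary (SD, n = 4 each), a difference of 1.35 percentage points (points below; two-sided exact permutation test, p = 0.0286, the smallest that 4 against 4 libraries can give). Within the 4 pairs the pituitary was higher by 1.59 and 2.23 points at T1 and by 1.38 and 0.220 points at T4, and the exact test over the signs of the pair differences gave p = 0.125, the smallest that 4 pairs can give, so the call at 0.05 was not kept once libraries were paired. The unpaired exact test gave p = 0.0571 when any single pituitary library was left out, with differences of 1.22 to 1.51 points.

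**Figure D1:**
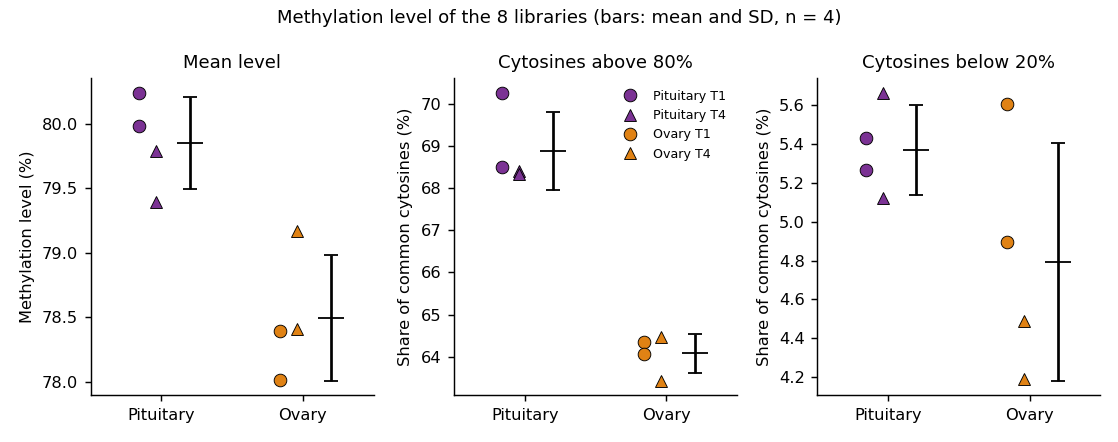
Each point is a library (mean level in %, share of common CpG cytosines over 80% and share under 20%), with pituitary left of ovary and bars for the mean and SD of 4 libraries. The tissues were separate in mean level and in the share over 80%, and overlapped in the share under 20%.

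The shape of the distribution differed by more than its mean. Cytosines with a level over 80% made up 68.51%, 70.27%, 68.41% and 68.35% of the common cytosines in the pituitary libraries, against 64.36%, 64.06%, 63.43% and 64.47% in the ovary libraries. The gap between the lowest pituitary and the highest ovary library was wider than the range within either tissue. The means were 68.9% ± 0.928 in the pituitary and 64.1% ± 0.467 in the ovary (SD, n = 4 each), a difference of 4.80 points (two-sided exact permutation test, p = 0.0286). The pituitary was higher in all 4 pairs, by 3.87 to 6.22 points (exact test over pairs, p = 0.125, the smallest possible). Cytosines under 20% made up 5.12% to 5.67% in the pituitary and 4.19% to 5.61% in the ovary, and these ranges overlapped (exact permutation test, p = 0.143). The ovary thus held more cytosines between 20% and 80%, at 30.3% to 32.1% of the cytosines, against 24.3% to 26.5% in the pituitary.

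The mean levels of the tissues lay closer at T4 than at T1, by a difference that could not pass its test at this number of libraries. At T1 the pituitary averaged 80.1% ± 0.182 and the ovary 78.2% ± 0.270 (SD, n = 2 each), a difference of 1.91 points. At T4 the pituitary averaged 79.6% ± 0.281 and the ovary 78.8% ± 0.538 (SD, n = 2 each), a difference of 0.799 points. Each of these comparisons gave p = 0.3333 in the exact permutation test, the smallest that 2 against 2 libraries can give. The difference between the time points was -1.11 points, with -0.520 points, T4 minus T1, in the pituitary and 0.588 points in the ovary (exact test within tissues, 36 arrangements, p = 0.0556, again the smallest possible, and p = 0.3333 over pairs). The T4 difference was 0.419 points without Ovary T4 replicate 1 and 1.18 points without Ovary T4 replicate 2, and the contrast between the time points was -1.49 to -0.727 points with a library left out.

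At single cytosines the differences were mostly small and had a long tail in both directions. The median difference, pituitary minus ovary, was 1.25 points and the SD across cytosines was 13.5 points. Differences of over 25 points were found at 3.99% of cytosines with the pituitary higher and at 3.47% with the pituitary lower. Beyond 50 points the order turned, with 23224 cytosines (0.555%) higher and 33913 (0.811%) lower in the pituitary. All 4 pituitary libraries lay above all 4 ovary libraries at 301368 cytosines (7.21%) and below them at 209991 (5.02%).

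Tiles were tested with the quasi-likelihood F test of edgeR on methylated and unmethylated reads, and a tile was called when its Benjamini-Hochberg adjusted p over all tiles was under 0.05. Of the 573350 tiles, 111097 (19.4%) were called, 69897 (12.2%) higher and 41200 (7.19%) lower in the pituitary. Higher tiles therefore made up 62.9% of the calls, close to the 63.3% of all tiles in which the pituitary was higher. The pituitary and ovary libraries did not overlap in 83.9% of the called tiles, and in 21.2% of all tiles. In the median called tile the pituitary was 15.1 points higher or 19.4 points lower than the ovary, whereas the median over all tiles was 1.41 points. Limma called 55639 tiles higher and 34789 lower without a block, and 50255 higher and 32439 lower with the pairs as a block.

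The levels behind the calls were not symmetrical. In the tiles called higher, the pituitary libraries averaged 81.2% to 82.2%, close to their level in the uncalled tiles (81.5% to 82.3%), and the ovary libraries averaged 60.8% to 66.9%, against 80.6% to 81.0% in the uncalled tiles. In the tiles called lower, the pituitary libraries averaged 49.3% to 52.1% and the ovary libraries 73.3% to 74.9%. Tiles higher in the pituitary were thus tiles in which the ovary lay below its own usual level, and tiles lower in the pituitary were mainly tiles in which the pituitary did.

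The direction of the calls turned with their size. Among called tiles that differed by less than 10 points, 17813 were higher and 5229 lower in the pituitary, so that 77.3% were higher. The share higher was 64.4% at 10 to 20 points, 57.5% at 20 to 30 points and 48.9% at 40 to 50 points. Over 50 points, 1030 tiles were higher and 2079 lower in the pituitary, or 33.1% higher. Leaving out each library in turn gave 842 to 1423 higher and 1888 to 2359 lower tiles of this size, so lower tiles were the more numerous whichever library was left out.

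The 2 kinds of large difference also differed in how closely the ovary libraries resembled each other. The 1030 tiles over 50 points higher had mean levels of 82.0%, 82.7%, 80.5% and 81.3% in the pituitary libraries, against 23.0% and 17.7% at T1 and 28.2% and 34.9% at T4 in the ovary libraries. The 2079 tiles over 50 points lower had 23.5%, 21.2%, 25.5% and 20.2% in the pituitary libraries, against 80.1%, 80.4%, 80.2% and 80.7% in the ovary libraries. In the higher tiles the ovary varied between libraries and was less methylated at T1, whereas in the lower tiles the ovary libraries were nearly equal. These tiles were picked by the same values, so the levels describe them and were not tested.

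**Figure D2:**
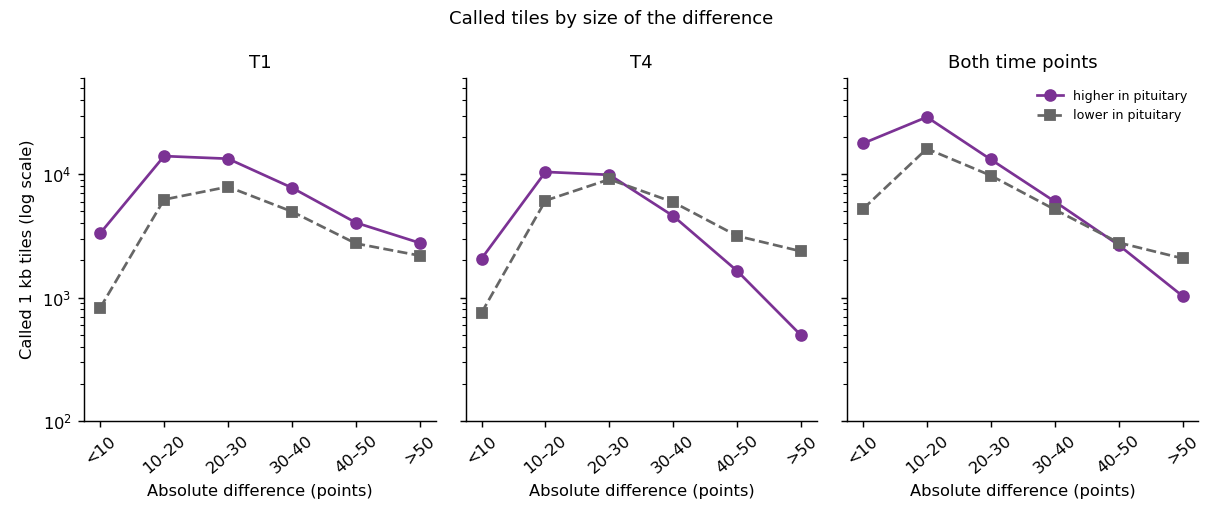
Number of called 1 kb tiles (log scale) by absolute difference in points, over all 8 libraries, at T1 and at T4, with tiles higher and lower in the pituitary as separate lines. The lines cross over 40 points in the comparison of all libraries, do not cross at T1 and cross over 30 points at T4.

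The time points were then compared separately in the same fit. At T1, 70298 tiles (12.3%) were called, 45384 (7.92%) higher and 24914 (4.35%) lower in the pituitary. At T4, 56612 tiles (9.87%) were called, 29154 (5.08%) higher and 27458 (4.79%) lower in the pituitary. Higher tiles made up 64.6% of the calls at T1 and 51.5% at T4. With the pairs as a block, limma called fewer tiles, 42026 at T1 (26481 higher and 15545 lower) and 25795 at T4 (11464 higher and 14331 lower), and 44.4% of the T4 calls were higher. Without the block, limma called 50042 at T1 and 34598 at T4. The T4 share fell under 50% without Pituitary T4 replicate 1 (43.4%), without Pituitary T4 replicate 2 (47.2%) and without Ovary T4 replicate 1 (41.8%), and under several other settings. The number of calls at T4 was 29554 to 37015 when 1 of the 4 T4 libraries was left out. At T1 it was 44633 without Pituitary T1 replicate 2 and 45064 without Ovary T1 replicate 2.

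The balance of large differences was not the same at the 2 time points. Over 50 points, 2775 tiles were higher and 2189 lower in the pituitary at T1, against 493 higher and 2372 lower at T4. Ovary T4 replicate 2 had the highest mean level of the ovary libraries, and without it 1054 tiles were higher and 2362 lower at T4. Lower tiles of this size were the more numerous at T4 whichever library was left out. At T1 higher tiles were the more numerous, by 4014 to 2400 without Ovary T1 replicate 1 and by 2280 to 2241 without Ovary T1 replicate 2.

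The 2 time points share no library, so the difference at each can be read at the tiles called in the other. The calls of both come from a single fit with a shared estimate of the spread per tile, so shared calls are not independent. The 24914 tiles called lower at T1 had a median difference of -26.5 points at T1 and of -25.8 points at T4. Of these, 98.3% had the same sign at T4, and 18493 (74.2%) were called lower there. The 45384 tiles called higher at T1 had a median difference of 23.5 points at T1 and of 14.7 points at T4. Of these, 96.1% had the same sign at T4 and 21137 (46.6%) were called higher. In limma without a block, 14141 of the tiles called lower and 12542 of those called higher at T1 were called in the same direction at T4. With the pairs as a block in limma, these counts were 11754 and 9201. The other way round, 72.5% of the tiles called higher at T4 and 67.4% of those called lower at T4 were called in the same direction at T1. Only 10 tiles called higher and 1 tile called lower at T1 were called in the opposite direction at T4.

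No tile passed the test of the difference between the time points itself (0 of 573350, 0%). At an unadjusted p under 0.05 edgeR gave 31377 of the 573350 tiles, and limma gave 0 adjusted and 32020 unadjusted. With no change at any tile, about 1 in 20 tiles would pass this unadjusted threshold. Across the tiles, the difference at T1 and that at T4 had a Pearson correlation of 0.797, a description over tiles that share the tissues' base composition and mapping and are not replicates.

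The joint levels of a tile showed which kinds of region differed. Both tissues were highly methylated (over 80%) in 59.2% of tiles and both were low (under 20%) in 2.27%. The pituitary was high and the ovary intermediate in 63057 tiles (11%), against 30245 tiles (5.28%) with the pituitary intermediate and the ovary high. At the low end the order was the other way round. The pituitary was low and the ovary intermediate in 4950 tiles (0.863%), against 2140 tiles (0.373%) with the pituitary intermediate and the ovary low. A full switch was rare, with 218 tiles low in the pituitary and high in the ovary and 30 tiles high in the pituitary and low in the ovary.

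The dependence on the starting level was examined by sorting tiles on their level at T1 and counting the calls at T4. The levels and the T4 differences come from different libraries, but the spread behind the calls was estimated over all 8 libraries. Tiles were first sorted on the mean of both tissues at T1, which favours neither direction. At a mean level of 20% to 30%, 25.8% of tiles were called lower and 6.19% higher in the pituitary at T4, against 4.79% lower and 5.08% higher over all tiles. At 30% to 40% the shares were 26.5% lower and 9.50% higher. At 60% to 70% they were close, with 13.3% lower and 14.5% higher, and at 80% to 90% they were 1.43% lower and 2.83% higher. Calls of lower pituitary methylation were thus the more frequent at mean levels under 60%, and calls of higher methylation above it.

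Sorting on a single tissue favours the direction in which that tissue stood at T1, because differences persisted between the time points, so the following shares are descriptions. Among tiles with a pituitary level of 10% to 20% at T1, 44.2% were called lower and 2.26% higher in the pituitary at T4, and at 90% to 100% these shares were 0.120% and 3.67%. Among tiles with an ovary level of 30% to 40%, 28.2% were called higher and 9.60% lower, and at 80% to 90% these shares were 1.60% and 3.80%. Where both tissues together were under 5%, 2.20% of tiles were called lower and 0.988% higher.

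**Figure D3:**
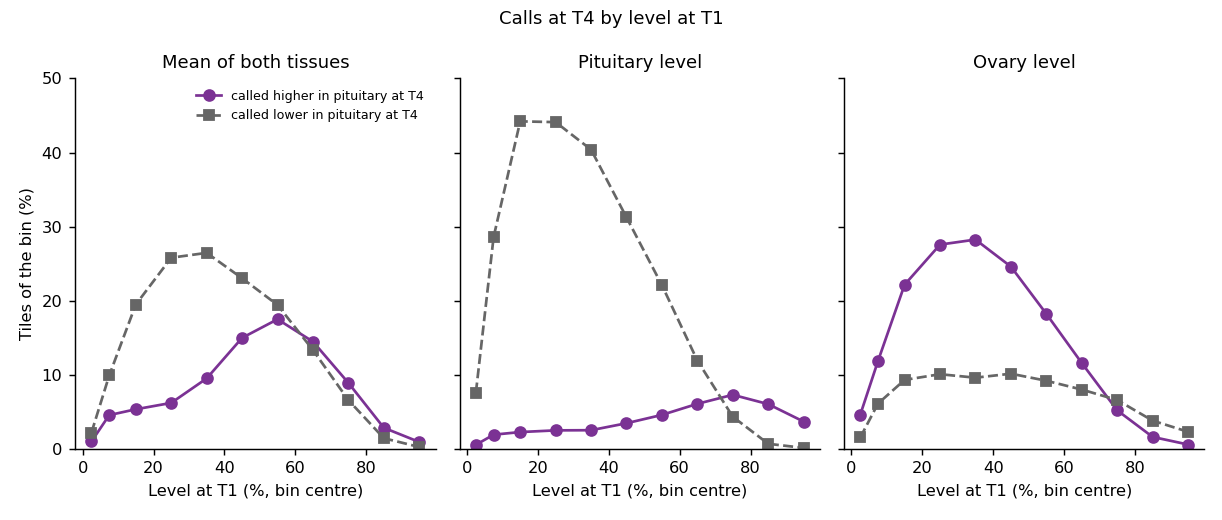
Share of 1 kb tiles called at T4 (%) by the level of the tile at T1 (%), sorted on the mean of both tissues, on the pituitary level and on the ovary level, with calls higher and lower in the pituitary drawn separately. Sorted on the mean of both tissues, calls lower in the pituitary peak at 30% to 40%, where 26.5% of tiles were called, and calls higher in the pituitary peak at 50% to 60%, with 17.5%.

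CpG density was taken as the number of CpG cytosines of a tile listed in any of the 8 libraries. A cytosine was listed with at least 10 reads, so this number also depends on coverage. The share of tiles called was 21.4% at 3 to 9 cytosines and 21% at 10 to 14. It was 16.6% at 20 to 29, 11.6% at 30 to 39 and 7.60% at 40 to 59 cytosines. The median absolute difference was 4.25 points in the sparsest tiles and 1.21 points in the densest. Differences of over 25 points were found in 3.70% (higher) and 3.34% (lower) of the sparsest tiles, and in 0.206% and 0.253% of tiles with 40 to 59 cytosines. At 60 or more cytosines no tile differed by over 25 points over both time points. These tiles were not unmethylated stretches. The median level was 91.7% in the pituitary and 90.5% in the ovary at 60 to 79 cytosines, and 93.1% and 92.3% at 80 or more. Only 0.146% and 0% of them were low in both tissues.

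In the 466 tiles with 80 or more cytosines, the share called was 17%, and 89.9% of these calls were higher in the pituitary. The median number of reads over the 8 libraries was 5776 in these tiles, against 712 in the sparsest, so that smaller differences could be called. The share of calls that were higher in the pituitary was 61.4% in the sparsest tiles, 69.9% at 30 to 39 cytosines and 78.3% at 40 to 59. The part of read depth in this order was not tested.

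Differences were clustered along the chromosomes, mainly over short distances. To avoid shared reads, the T1 difference of a cytosine was correlated with the T4 difference of another at a given distance. The correlation was 0.646 for the same cytosine. It was 0.377 at 1 base, over 54737 pairs only, and from 2 bases on it fell with distance. It was 0.591 at 2 to 10 bases, 0.506 at 26 to 50 bases and 0.367 at 101 to 200 bases. It was 0.115 at 401 to 800 bases, 0.0478 at 801 to 1600 bases and 0.0132 at 6401 to 12800 bases. Over tiles the same correlation was 0.194 between neighbours and 0.0494 at 2 kb. All of these describe cytosines or tiles of the same 8 libraries and carry no test.

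Calls followed the same course. After a tile called higher in the pituitary, the adjacent tile was called higher in 26.5% of cases (6277 of 23648), against 11.2% after an uncalled tile. After a tile called lower, the adjacent tile was called lower in 24.3% of cases (3281 of 13509), against 6.07% after an uncalled tile. Only 23648 of the 69897 higher and 13509 of the 41200 lower tiles had a tested tile directly after them. Runs were counted over consecutive tested tiles with starts at most 3 kb apart, so a wider untested gap ended a run. Of the calls, 75.6% of those higher and 78.8% of those lower in the pituitary were not part of a run. Runs of at least 3 consecutive tiles held 5.41% of the higher and 4.21% of the lower calls. The longest run had 7 tiles when the pituitary was higher and 9 when it was lower.

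**Figure D4:**
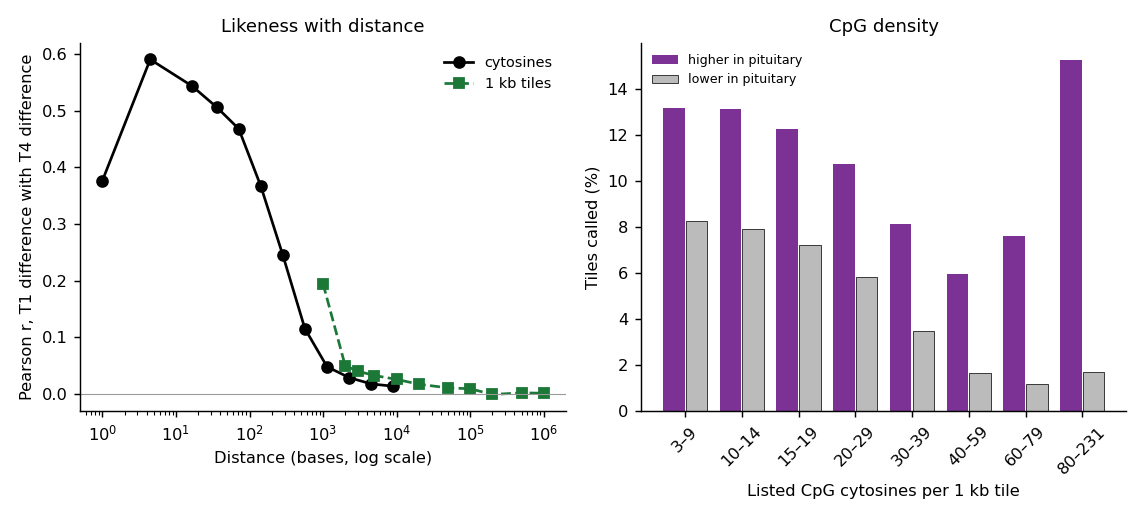
Pearson correlation of the T1 difference with the T4 difference by distance between cytosines and between 1 kb tiles (bases, log scale), and share of tiles called (%) by the number of listed CpG cytosines in the tile. The correlation between cytosines was 0.367 at 101 to 200 bases and 0.0478 at 801 to 1600 bases, and the share called was lowest at 40 to 59 cytosines.

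The small overall excess in the pituitary was spread over the genome. On each of the 29 chromosome sequences the mean tile level was higher in the pituitary, by 1.19 to 1.84 points, and 18.2% to 22.9% of tiles were called. Among 5155 windows of 100 kb with at least 30 tiles, 75.9% had a mean difference above 0. The median window differed by 1.54 points, and the 5th and 95th percentiles were -2.68 and 5.51 points. The extremes lay on the lower side, at -26.8 points, whereas the highest window reached 13.2 points. In all, 9 windows were more than 10 points higher and 6 more than 10 points lower in the pituitary.

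The tiles with the largest differences were taken among those with at least 5 common cytosines, separate groups and ordinary coverage. In the leading tile with higher methylation in the pituitary (CM003290.1:53891001-53892000), the 8 common cytosines had a level of 76.5%, 81.2%, 75.3% and 82.7% in the pituitary libraries, against 3.60%, 0%, 1.05% and 2.01% in the ovary libraries. The ovary was all but unmethylated here, and both time points gave the same picture. The difference was 77.3 points with a log2 odds ratio of 7.73 (edgeR, adjusted p = 1.11e-10). Liver libraries averaged 56.8% in the same tile.

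Another tile (CM003292.1:54322001-54323000) lay inside LOC106570074, described as oxysterol-binding protein-related protein 10-like, a family of lipid-binding proteins, 25861 bases from the gene's start. Its 10 cytosines had 80.7%, 83.3%, 79.03% and 77.9% in the pituitary libraries, against 7.56%, 5.84%, 8.38% and 10.5% in the ovary libraries. The spread within each tissue was a few points. The difference was 72.2 points (edgeR, adjusted p = 1.00e-11). It was the only one of the 16 leading tiles that lay within a listed gene model or 5 kb of one. The tile with the second largest difference (73.5 points) was CM003292.1:72504001-72505000, in which the pituitary averaged 75.7% ± 9.48 and the ovary 2.18% ± 3.66 (SD, n = 4 each), and the liver libraries averaged 0.231%. The 8 leading higher tiles differed by 69.2 to 77.3 points.

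The leading tiles with lower methylation in the pituitary had the reverse levels. In CM003288.1:100755001-100756000, 5 cytosines within 14 bases had 24.2%, 13.7%, 1.35% and 8.82% in the pituitary libraries, against 86.4%, 94.2%, 91.7% and 93.3% in the ovary libraries. The pituitary libraries varied, but none came near the ovary. The difference was -79.4 points (edgeR, adjusted p = 2.52e-09).

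In CM003295.1:39606001-39607000 the pituitary libraries had 10.2%, 7.38%, 11.7% and 10.1%, against 88.4%, 79.4%, 90% and 88.6% in the ovary libraries. In CM003279.1:146876001-146877000, with 10 cytosines, the pituitary libraries had 12.0%, 12.7%, 21.5% and 14.1%, against 92.3%, 87.3%, 90.7% and 91.5% in the ovary libraries. Each was called with an adjusted p of 4.56e-11 in edgeR. The 8 leading lower tiles had liver levels of 85.2% to 95%, apart from CM003299.1:14550001-14551000 at 43.8%.

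The cytosines of these tiles behaved alike. In all 16 tiles, every common cytosine had pituitary libraries that did not overlap the ovary libraries, against 7.21% (higher) and 5.02% (lower) of all common cytosines, as the choice of tiles for separate groups favours. The differences of single cytosines ranged between 48.3 and 87.4 points in the higher tiles, and between -90.2 and -37.5 points in the lower tiles. Of the 16 tiles, 2 lay on unplaced scaffolds. Where a tile lay outside the listed gene models, its position relative to genes was not analysed here.

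Longer stretches showed the same difference in kind. The longest runs higher in the pituitary held 7 tiles, and the one among them with the largest mean difference (CM003293.1:27198001-27205000) averaged 85.5% in the pituitary and 56.6% in the ovary, with 34.2 points at T1 and 23.6 points at T4. The longest runs lower in the pituitary were 2 runs of 9 tiles. The first (CM003290.1:51791001-51802000) averaged 33.8% in the pituitary and 71.2% in the ovary, while the liver had 86.0%. The other (CM003291.1:35661001-35678000) spanned more bases and was of another type. It averaged 3.47%, 2.65%, 1.85% and 1.74% in the pituitary libraries, against 40.7% and 46.7% at T1 and 31.2% and 27.1% at T4 in the ovary libraries, and 4.23% in the liver.

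The 3 windows with the largest share of tiles called lower had mean differences of -26.8, -26.7 and -17.6 points. In CM003281.1:57400001-57500000, 24 of 32 tiles (75%) were called lower and none higher, against 7.19% lower over all tiles. The tiles averaged 7.70%, 8.06%, 10.3% and 9.72% in the pituitary libraries, against 39.1%, 39.6%, 32.8% and 31.6% in the ovary libraries. Both tissues were well below the genome's mean, and the ovary was the more methylated in every library. The window held LOC106600834, a homeobox protein Hox-B10a-like gene, and LOC106600832, described as homeobox protein XHOX-3-like. Hox genes encode transcription factors that set positional identity along the body axis, and lie in clusters.

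In CM003291.1:35600001-35700000, 23 of 31 tiles (74.2%) were called lower and none higher. The tiles averaged 17.1% to 18.3% in the pituitary libraries, against 49.6% and 52.7% at T1 and 38.5% and 37.0% at T4 in the ovary libraries. The liver averaged 19.9%, close to the pituitary. No listed gene model overlapped this window, which contains the second run of 9 tiles. In CM003303.1:15000001-15100000, 20 of 31 tiles (64.5%) were called lower and 1 higher. In limma these counts were 19 and 0 without a block, and 18 and 0 with the pairs as a block. Pituitary tiles averaged 20.5% there, against 38.1% for ovary tiles. The window held evx2a, an even-skipped homeobox gene that borders a Hox cluster in vertebrates.

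**Figure D5:**
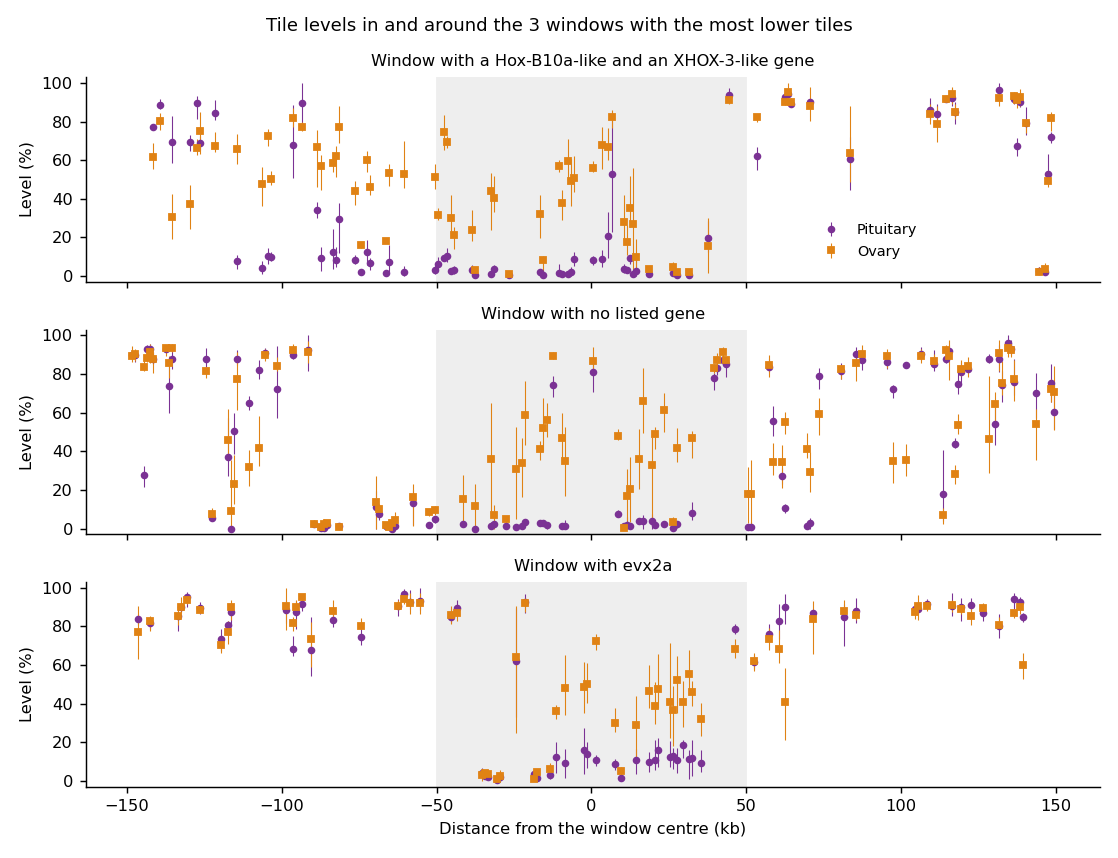
Methylation level (%) of each 1 kb tile by distance from the window's centre (kb) in the 3 windows with the largest share of tiles called lower, as the mean of 4 pituitary and 4 ovary libraries with bars from the lowest to the highest library. In the first window 24 of 32 tiles, in the second 23 of 31 and in the third 20 of 31 were called lower in the pituitary.

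Windows with the largest share of tiles called higher were milder. In CM003279.1:88600001-88700000, 18 of 35 tiles (51.4%) were called higher, against 12.2% over all tiles, and the means were 83.7% in the pituitary and 72.7% in the ovary. The liver had 81.8%. In CM003306.1:21300001-21400000, 19 of 39 tiles (48.7%) were called higher with a mean difference of 10.1 points. In CM003290.1:23900001-24000000 the count was 17 of 37 (45.9%) with 9.03 points. In limma, 14, 17 and 14 tiles were called higher in these 3 windows without a block, and 14 in each with the pairs as a block. None of the 3 overlapped a listed gene model.

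The surroundings of Hox genes were then read directly. Gene models came from the study's list of genes near regions that differed between T4 and T1 in these libraries, so they are not a sample of all genes, and a change with time around them is no independent observation. The list of Hox genes matched 4 of the 2063 gene models, and tiles within 50 kb of each gene's middle were counted. Around hoxa5ab, 24 of 31 tiles (77.4%) were called lower in the pituitary and none higher. The tiles averaged 12.8%, 11.8%, 12.0% and 11.3% in the pituitary libraries, against 50.6% and 52.7% at T1 and 40.4% and 41.0% at T4 in the ovary libraries. The pituitary was nearly constant, and the ovary was lower at T4 than at T1. The difference was -39.3 points at T1 and -29.0 points at T4, and the liver averaged 22.5%.

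Around the Hox-B10a-like gene, whose surroundings share tiles with the first of the lower windows, 20 of 28 tiles (71.4%) were called lower, with means of 11.3% ± 1.33 in the pituitary and 35.7% ± 4.04 in the ovary (SD, n = 4 each). Around hoxa2ab, 19 of 34 tiles (55.9%) were called lower and 3 higher, with 44.7% ± 2.33 in the pituitary and 68.1% ± 0.775 in the ovary (SD, n = 4 each). Around hoxc12ab, 8 of 25 tiles (32%) were called lower. The difference there was -15.3 points at T1 and -2.16 points at T4, since the ovary had 28.0% and 30.3% at T1 against 16.3% and 17.7% at T4. All these shares stand beside 7.19% of tiles called lower over the genome. Weakly methylated tiles were called lower more often than that average. At T4 alone, 19.5% of tiles with a T1 mean of both tissues of 10% to 20% were called lower. At 20% to 30% the share was 25.8%, against 4.79% over all tiles at T4. The part of the level in the shares around Hox genes was not tested.

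The tiles on or at the start of the Hox genes themselves were called lower in 6 of 7 cases and higher in none, with a median difference of -40.9 points, against 1.41 points over all tiles. At the start of hoxa5ab the pituitary libraries had 18.9%, 5.54%, 10.8% and 4.42%, against 69.2%, 66.4%, 35.9% and 37.8% in the ovary libraries (edgeR, adjusted p = 9.76e-08). At the start of hoxc12ab the levels averaged 3.21% in the 4 pituitary libraries, against 3.14% in the 4 ovary libraries, and the tile was not called. Beside the list, XHOX-3-like (12 of 24 tiles called lower, 50%) and evx2a (10 of 25, 40.0%) were read after their windows had been seen.

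The listed gene models held no pituitary hormone gene and no gene of the methylation machinery, and the tissue labels could not be checked on hormone genes. The following counts stand beside 12.2% of tiles called higher and 7.19% called lower over the genome, with a median difference of 1.41 points. Of 11 tiles at genes for pituitary transcription factors, 2 were called higher and 0 lower, with a median difference of 0.286 points. Of 141 tiles at genes for pituitary receptors and secretory proteins, 23 were called higher and 18 lower, with a median of 3.42 points. Of 20 tiles at genes for gonad transcription factors, 8 were called higher and 4 lower, with a median of 4.93 points. Of 14 tiles at oocyte and germ line genes, 0 were called higher and 3 lower, with a median of -0.253 points, and of 5 tiles at an ovarian somatic gene, 2 were called higher and 0 lower. At liver genes 1 of 36 tiles was called higher and 2 lower, and at blood and immune cell genes 0 of 2 were called.

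In chga, which encodes chromogranin A of the secretory granules of endocrine cells, a tile with 10 cytosines 3901 bases from the start had 30.1%, 25%, 33.0% and 31.8% in the pituitary libraries, against 76.2%, 79.4%, 76.9% and 75.2% in the ovary libraries. The groups were far apart and each was tight (edgeR, adjusted p = 1.21e-09), and the liver had 80.4%. The tile at the start of chga was not called, with means of 33.4% in the pituitary and 31.98% in the ovary. Of the 5 tiles over chga, 2 were called higher and 1 lower in the pituitary, against 12.2% and 7.19% over all tiles.

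Synaptotagmin-1 is a calcium sensor of vesicle release, and 2 genes described as synaptotagmin-1-like were listed. In LOC106576317, a tile had 22.6%, 21.4%, 16.98% and 26.4% in the pituitary libraries, against 68.8%, 76.3%, 79.8% and 72.6% in the ovary libraries (edgeR, adjusted p = 4.72e-07), and 9 of 53 tiles were called higher and 9 lower, against 12.2% and 7.19% over all tiles. Its start tile was also lower in the pituitary (-22.4 points; edgeR, adjusted p = 0.00772). In LOC106609413, 9 of 54 tiles were called higher and 7 lower, beside the same shares over all tiles. The largest difference there was 42.1 points (edgeR, adjusted p = 1.47e-08). The paralogs therefore differed in the direction of their largest tile.

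The 5 listed genes for gonad transcription factors held tiles called in both directions. The tile counts below stand beside 12.2% of tiles called higher and 7.19% called lower over all tiles. The 1 tile called higher in LOC106579008, Sox-9-B-like, was not called in limma, either without the pairs as a block (adjusted p = 0.0815) or with them (0.0693). In nr2f2, a nuclear receptor gene known in mammals from mesenchymal and steroid-producing cells, 5 of 7 tiles were called higher in the pituitary. The largest had 74.9%, 75.1%, 62.8% and 76.7% in the pituitary libraries, against 35.4%, 45.5%, 35.0% and 34.8% in the ovary libraries (edgeR, adjusted p = 1.10e-06), and the liver had 10.8%. In LOC106576814, an EMX2-like homeobox gene of a family that mice need for gonad formation, both tested tiles were called lower. A tile there had 2.61%, 4.03%, 2.88% and 5.38% in the pituitary libraries, against 46.8%, 33.6%, 37.6% and 42.9% in the ovary libraries (edgeR, adjusted p = 3.89e-08).

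LOC106608085 is described as OTX2-like, a homeobox factor of head and pituitary development. In the tested tile nearest to its start, 404 bases upstream, the pituitary libraries had 28.6%, 17.5%, 22.0% and 24.1%, against 5.73%, 6.80%, 6.76% and 6.77% in the ovary libraries. This tile was more methylated in the pituitary in every library (16.5 points, edgeR, adjusted p = 3.49e-05). LOC106608959 is described as tudor domain-containing protein 7B-like, a family of germ granule proteins. Its tile with the largest difference was lower in the pituitary (-34.4 points), with -24.0 points at T1 and -44.8 points at T4 (edgeR, adjusted p = 1.96e-05). The start tile of this gene was not called (edgeR, adjusted p = 0.0811). LOC106605132 is described as R-spondin-1-like, and its mammalian counterpart encodes a secreted enhancer of Wnt signalling needed for ovary development. Its tile with the largest difference, 13013 bases from the start, was 23.5 points higher in the pituitary (edgeR, adjusted p = 6.04e-05). The start tile was not called (edgeR, adjusted p = 0.522).

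Over all 1062 start tiles of the listed gene models, 97 (9.13%) were called higher and 82 (7.72%) lower in the pituitary. Over all tiles these shares were 12.2% and 7.19%. Tiles over the gene models (4.76% of all tiles) were called in 22.2% of cases, 13.4% higher and 8.79% lower, against 19.2% of the tiles elsewhere. Mean levels dipped towards the start in both tissues. They were 78.8% in the pituitary and 77.7% in the ovary at 10 to 20 kb before the start, 35.8% and 34.1% in the first kb of the gene, and 81.2% and 79.98% at 10 to 20 kb into it.

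Liver libraries, which entered neither group, were set beside the called tiles. In the tiles called higher with enough liver reads (65934), the liver averaged 79%, and it was nearer to the pituitary in 74.8% of them. In the tiles called lower (38857), the liver averaged 78.4%, and it was nearer to the ovary in 90.8%. Over uncalled tiles it was nearer to the pituitary in 48.4% and to the ovary in 51.5%. In most called tiles of either direction, the tissue with the lower level was the one farther from the liver. The low windows were exceptions, since the liver had 14.9% and 19.9% in the first and second of them, nearer to the pituitary.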

How the data were processed

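The authors trimmed reads with Trim Galore 0.5, aligned them with BS-Seeker2 2.1.8 and Bowtie2 to ICSASG_v2 and removed duplicates with Picard. The deposited files hold, per CpG cytosine of either strand, the raw count of reads (10 or more) and of methylated reads, with no normalisation and no header.

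Groups and replicate numbers came from the library descriptions. Tiles of 1 kb were tested in edgeR 4.0.16 (R 4.3.3) with library effects, 4 tissue and time point terms and a common dispersion from 20000 tiles, which was checked on simulated data. Library means were compared with two-sided exact permutation tests (70 arrangements). The replicate numbers were checked for pairing. The difference between the replicates of a time point correlated between pituitary and ovary with r = 0.0762 at T1 and 0.128 at T4 over all cytosines. Over the 35640 most variable cytosines, libraries of the same number correlated with r = 0.823, 0.394, 0.822 and 0.817, and those of different numbers with -0.0668 to 0.122. They were therefore taken as 4 pairs, from the data and not from the labels, and a limma fit with the replicate number as a block and exact tests over pairs (16 arrangements, chosen after seeing the data) were added. The labels do not say whether replicates of a group are separate in more than the fish sampled, so p-values measure the spread between these libraries.

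Named tiles were, per direction, the 8 with the largest difference among called tiles with at least 5 common cytosines, groups that did not overlap and coverage of at most 3 times the library's median, at most 1 per 100 kb. Named runs (tile starts at most 3 kb apart) and windows were the 3 longest and the 3 with the largest share called (at least 30 tiles). The plan assigned genes only from an annotation of the build in the reference, and none was used here. Gene names and positions were instead read, after the tiles had been seen, from the study's supplementary list (2063 gene models, ICSASG_v2), without its results, and 4 matches to other genes were dropped. The start of a gene was read in the tested tile that held it, or otherwise in the nearest tested tile within 1 kb. Liver levels needed at least 30 reads. Alternatives were limma 3.58.1 on log2((methylated + 1)/(unmethylated + 1)), other tile sizes, coverage minimums, blocks and left-out libraries. The comparison, lists and rules were chosen with earlier results of these data known.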

Additional observations from a re-analysis of the deposited data

Results flagged for a closer look

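Among 160 groups of 4 libraries, 18 held a library far from the other 3 (Dixon's test), and chance alone gives about 1 in 20. In the share of cytosines over 80%, Pituitary T1 replicate 2 stood above the other pituitary libraries at 70.3%.

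In the leading tiles, Pituitary T4 replicate 1 stood apart at 41.0% in CM003290.1:16955001-16956000 and at 23.9% in CM003281.1:16978001-16979000. Ovary T1 replicate 2 stood apart at 7.62% in CM003292.1:72504001-72505000, at 79.4% in CM003295.1:39606001-39607000 and at 45.4% in the leading run of 7 tiles higher in the pituitary. None of these values reached the range of the other tissue, which in the leading tiles was fixed by their choice for separate groups.

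Among gene tiles, a pituitary library stood apart at the start of ndf1 (Pituitary T4 replicate 2, 33.1%), in LOC106561112, thyrotropin-releasing hormone receptor-like (Pituitary T1 replicate 2, 50.4%), and, each time Pituitary T4 replicate 1, in LOC106610621, odd-skipped-related 1-like (13%), in the largest tile of nr2f2 (62.8%) and at the start of LOC106605132, R-spondin-1-like (54.0%). Ovary T1 replicate 1 stood apart at the starts of LOC106608085 (5.73%), nr2f2 (41.4%) and LOC106605132 (49.2%), in LOC106573769, COUP transcription factor 2-like (40.5%), and in LOC106573520, zona pellucida sperm-binding protein 4-like (86.7%). Ovary T1 replicate 2 did so in the largest tile of nr2f2 (45.5%), and Ovary T4 replicate 1 at the start of LOC106579008, Sox-9-B-like (1.10%, with the other ovary libraries at 0).

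The mean level differed in opposite directions between T4 and T1, with both T4 pituitary libraries below both T1 pituitary libraries and both T4 ovary libraries above both T1 ovary libraries. The difference of -1.11 points had the smallest p its exact test can give (0.0556), which misses 0.05, and it was -0.333 points over every cytosine listed in each file. There the opposite directions were not kept, since the T4 pituitary libraries had 80.9% and 80.6%, between the 80.2% and 81.2% of the T1 pituitary libraries.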

How the results depend on the processing

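The mean difference between pituitary and ovary was 1.25 to 1.71 points under the alternatives (exact permutation p = 0.0286 in each) and 1.19 to 1.58 points with a library left out. With a pituitary library left out, the exact p was 0.0571 in each case, and over the 4 pairs it was 0.125 for 1.35 points. Tile counts moved with the tiles or reads admitted. At least 5 common cytosines gave 73790 calls over both time points. At least 20 reads gave 31566 calls, 21944 at T1 and 18344 at T4, among 117670 tiles. Limma gave 34598 calls at T4, and 36220 when the libraries were blocked by the codes in their titles. These codes join Pituitary T1 replicate 1 to the ovary library it resembles less (0.122 against 0.823), so they hold only 1 of the 4 pairs. Leaving out a library gave 90044 to 98381 calls over both time points, 44633 to 68482 at T1 and 29554 to 56501 at T4. For the change between time points it gave 0 to 73 tiles, and tiles of 5 kb gave 2. The share of T4 calls that were higher in the pituitary went under 50% with limma (47.3%), with the fish block (47.7%), with tiles of 500 bases (49.9%), without cytosines of high coverage (49.8%) and with libraries left out (41.8% to 52.8%). The causes were not tested. The 16 leading tiles kept their direction and call in all 243 alternative values (largest adjusted p 0.00106). They were picked from the same reads for large differences between separate groups, so this outcome was favoured by the choice and is no independent check. Depth limits single tiles, which held a median of 104 to 124 reads per library, and counting error is part of the spread.

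With the replicate pairs as a block, limma gave 82694 calls over both time points, 42026 at T1 and 25795 at T4, of which 44.4% were higher in the pituitary at T4. Of the edgeR calls over both time points, 70.5% kept their direction and call with the block, and 77.4% did so in limma without it. Among named gene tiles, the start of nr2f2 (adjusted p = 0.0968) and of LOC106588644, zona pellucida sperm-binding protein 3-like (0.0863) were no longer called. The same held for the tiles with the largest difference in LOC106579008 (0.0693), LOC106561112 (0.0974) and LOC106573769 (0.0688). Limma without the block already did not call those of nr2f2 (adjusted p = 0.0631), LOC106579008 (0.0815) and LOC106561112 (0.0620). It did call those of LOC106588644 (0.0468) and LOC106573769 (0.0355). The gene tiles given above with an edgeR adjusted p under 0.05 kept their call.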

Other observations

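Of the 9 windows of 100 kb that were more than 10 points higher in the pituitary, 3 overlapped a listed gene model, and they are named after their values were seen. Over all tiles, 12.2% were called higher. A window in rbfox3, an RNA-binding splicing factor gene, averaged 78.2% in the pituitary and 66.2% in the ovary, with 16 of 41 tiles called higher in the pituitary and a liver level of 78.3%. A window over LOC106576204, described as potassium voltage-gated channel subfamily D member 2-like, averaged 78.9% in the pituitary and 68.2% in the ovary. Of its 32 tiles, 11 were called higher (in limma, 8 without and 7 with the replicate pairs as a block). A window in LOC106572392, calmodulin-binding transcription activator 1-like, averaged 78.3% in the pituitary and 67.9% in the ovary, with 13 of 30 tiles called higher. In limma, 10 tiles were called higher in this window and 14 in the window in rbfox3, both with and without the same block. On the lower side, a window with no listed gene model (CM003290.1:54100001-54200000) averaged 33.1% in the pituitary and 50.4% in the ovary. Of its 32 tiles, 17 were called lower and 2 higher, against 7.19% and 12.2% over all tiles. Its mean difference of -17.3 points was close to that of the window with evx2a (-17.6 points). A window on the same chromosome sequence as hoxc12ab (CM003293.1:88400001-88500000) averaged 47.3% in the pituitary and 61.7% in the ovary. Of its 33 tiles, 17 were called lower and 3 higher, beside the same shares over all tiles.

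A few gene starts varied more between libraries than between tissues. At the start of LOC106570911, serum albumin 2-like, the pituitary libraries had 75.2%, 6.25%, 4.11% and 44.5%, against 69.97%, 0.478%, 2.73% and 59.8% in the ovary libraries, in the order T1 replicates 1 and 2, then T4 replicates 1 and 2. At the start of ndf1, a neurogenic transcription factor gene, the pituitary libraries had 0.836%, 2.91%, 5.06% and 33.1%, against 0.543%, 59.6%, 0.938% and 49.1% in the ovary libraries. Neither tile was called (edgeR, adjusted p = 0.999 and 0.243).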
